A study of Mus musculus with 4 samples.

Results

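The cells described here are liver mesothelial-gated cells with high Osr1 from mice recovering from fatty liver injury, 257 of the 1389 gated cells in the library labelled positive recovery. Cells of that library were kept with at least 1000 unique molecular identifiers (UMIs, 1 per captured RNA molecule), at least 300 genes and at most 20% of UMIs from mitochondrial genes, which left 2126 of 2606 barcodes. A kept cell was gated as mesothelial when Msln, Upk3b, Nkain4 and Lrrn4 together made up at least 10 of every 10000 UMIs while Clec4g, Stab2 and Ptprb, 3 endothelial genes, stayed under 20. Gated cells with 3 or more Osr1 UMIs are called Osr1-high cells below, and the comparison group is the 985 gated cells with 0 Osr1 UMIs. The other 147 gated cells had 1 or 2 Osr1 UMIs.

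The mesothelium is the single layer of flat cells that covers the liver and the other organs of the body cavity. Its cells are of mesodermal origin, carry keratins and junctions like an epithelium, and express the transcription factor Wt1. Osr1, odd-skipped related 1, is a zinc finger transcription factor of the embryonic intermediate and lateral plate mesoderm, which is also known from fibroblast progenitors.

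The study profiled non-parenchymal liver cells of Col1a2-CreERT2 mice with an inducible tdTomato reporter, in which a collagen gene promoter drives the recombinase. The labels write the reporter allele as R26RtdTomato, R27RtdTomato, R28RtdTomato and R29RtdTomato for the positive injury, positive recovery, negative injury and negative recovery groups. Steatohepatitis was induced for 8 weeks with a methionine- and choline-deficient diet of 45% fat and 0.1% L-methionine in the water. The sources used here do not give age, sex, the number of mice pooled, how long recovery lasted or how the fractions were sorted. Each of the 4 groups had 1 library, so no difference below has a replicate check, and no p-value is given. The counts of the positive injury library were not analysed here, and the reporter transcript was not among the measured features.

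The library labelled positive recovery held 33442403 UMIs, with a median of 10748 per barcode, the negative recovery library 27816768 and the negative injury library 49993127. Gated cells made up 65.3% of kept cells in the positive recovery library. They were 84 of 2818 kept cells (2.98%) in negative recovery and 301 of 5271 (5.71%) in negative injury. Between 3 and 9 barcodes were shared by any pair of libraries. The Osr1-high cells were 18.5% of gated cells in positive recovery (exact binomial 95% interval 16.5 to 20.7%). In negative recovery 0 of 84 gated cells reached 3 Osr1 UMIs, which allows a share of up to 3.57% by the limit of 3 counts and 4.30% by the exact binomial interval. In negative injury 12 of 301 did, or 3.99% (2.08 to 6.86%). Intervals here and below cover counting error alone.

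Osr1 (chromosome 12, 9570116 to 9581500, plus strand, mm10) was at 3 to 67 UMIs in the Osr1-high cells, with a median of 8, as the rule sets. The 257 cells held 2740 of the 3114 Osr1 UMIs in the library's kept cells, or 88.0%. Their median depth was 17199 UMIs (3341 to 71761) and 4363 genes, against 13920 UMIs (1005 to 113004) and 3964 genes in the Osr1-0 cells. Because a fixed number of Osr1 UMIs is reached more easily in a deep cell, the comparison was repeated in cells of 8000 to 30000 UMIs, where the medians were 15686 and 15836.

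Mesothelial identity was checked on genes outside the gate. All 18 genes of the mesothelial marker list were detected in the Osr1-high cells. So were all 16 of the stellate and all 20 of the fibroblast list, so detection in the sum does not tell the types apart. The summed level of the mesothelial list was 18940 UMIs per 1000000 (CPM) against 26900 in Osr1-0 cells. Wt1 was at 508.5 CPM (Poisson 95% interval 490 to 528) in Osr1-high and 331.7 (323 to 341) in Osr1-0 cells. Upk3b, a urothelial and mesothelial membrane protein used in the gate, was at 1352 and 1287 CPM. Nkain4 was at 1636 and 960 CPM, and Msln, mesothelin, at 468 and 1567 CPM. Nkain4 and Msln are gate genes like Upk3b, so their presence follows from the rule and is no check of identity. Of genes that define other types, Lrat, Reln, Dpt and Mfap4 were low, but the fibroblast list as a whole was not. Lrat and Reln of stellate cells were at 12.1 and 24.9 CPM here but at 829 and 1549 CPM in the 107 kept cells gated on Lrat, Reln and Colec11. Dpt and Mfap4 of fibroblasts were at 10.3 and 4.26 CPM, level with 8.65 and 4.26 CPM in Osr1-0 cells, and at 1456 and 813 CPM in the 102 cells gated on those genes. Neither gate holds the further 99 kept cells that met both, in which Dpt was at 1276, Mfap4 at 415, Lrat at 237 and Reln at 505 CPM. Summed, the 20 genes of the fibroblast list were at 3657 CPM in Osr1-high and 2454 CPM in Osr1-0 cells. They were at 5568 CPM in the 102 and 3716 CPM in the 99 cells. The mesothelial list was at 3588 CPM in the 102 and 2698 CPM in the 99 cells.

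Of the label's marker genes, Enpp2, Mfap5 and Fn1 stood well above Osr1-0 cells, while Cxcl13 did not mark the group as a whole. Cxcl13, a B cell attracting chemokine, had 376 UMIs in the Osr1-high cells, and 279 of these came from 3 cells. The other 254 cells were at 17.7 CPM (14.4 to 21.6), against 7.82 CPM in Osr1-0 cells. After each cell was thinned to 3000 UMIs, 5.06% of Osr1-high cells (2.72 to 8.49%) and 2.20% of Osr1-0 cells (1.31 to 3.45%) had a Cxcl13 UMI, against 1.10% (0.133 to 3.91%) in the endothelial gate, the 201 kept cells at or over the endothelial limit and under that of the mesothelial genes. Without thinning the shares were 26.5%, 5.69% and 3.98%, at medians of 17199, 13920 and 10039 UMIs. The 3 intervals after thinning overlap. Cells of the leukocyte gate held Cxcl13 at 217 CPM, above the 66.8 CPM of the Osr1-high cells.

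Summed levels were compared as log2 ratios after 10 CPM was added to both groups, over 8534 genes with a mean of the group levels of at least 10 CPM, leaving out Osr1 and the 7 gate genes. At least 2-fold higher in Osr1-high cells were 275 genes (3.22%), and at least 2-fold lower were 291 (3.41%), 566 in all (6.63%). The median over all 8534 genes was a log2 ratio of 0.00. Genes were named from the extremes of this ranking and from fixed lists, so their ratios describe the contrast that chose them.

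**Figure D1:**
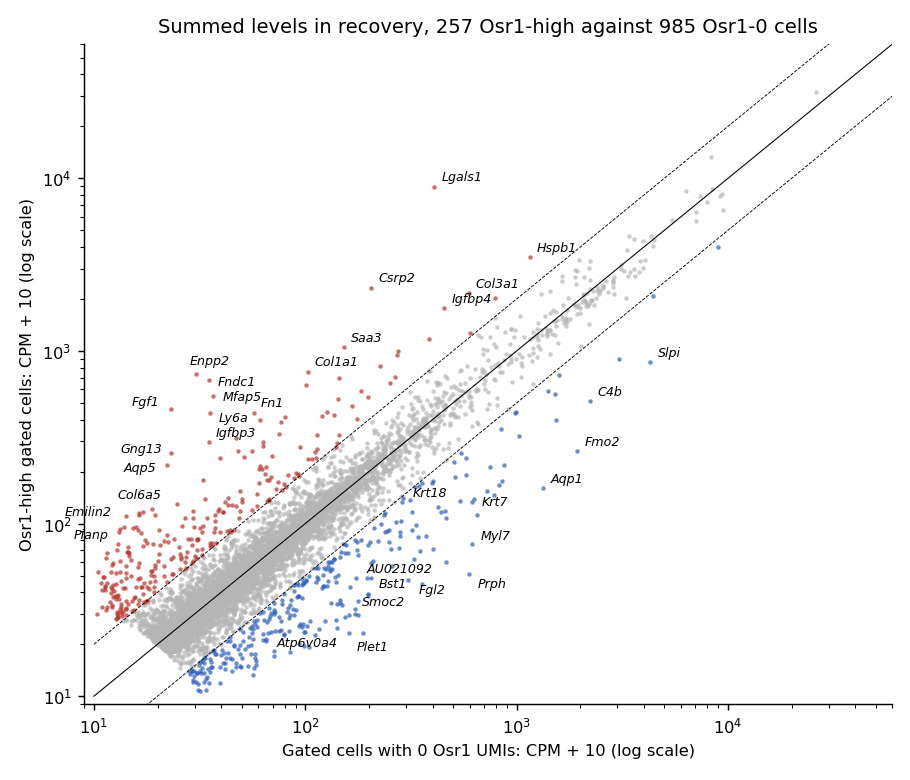
Summed level of each counted gene in the 985 Osr1-0 cells (horizontal, CPM plus 10, log scale) and the 257 Osr1-high cells (vertical, same scale) of the positive recovery library. The solid line marks equal levels and the dashed lines 2-fold. Red dots are the 275 higher and blue dots the 291 lower genes; Lgals1 lies far above the upper dashed line at 8943 against 398 CPM, and Fmo2 below the lower one at 252.5 against 1920 CPM.

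The gene with the highest ratio was Enpp2 (chromosome 15, 54838901 to 54952892, minus strand), which encodes autotaxin, the secreted enzyme that makes lysophosphatidic acid. It was at 720.5 CPM (698.5 to 743) in Osr1-high and 20.5 CPM (18.36 to 22.91) in Osr1-0 cells, a log2 ratio of 4.58. Per cell, Enpp2 ranged from 0 over a median of 4.84 to 64.2 UMIs per 10000 in Osr1-high cells, and 1.93% of Osr1-0 cells lay above that median. An Enpp2 UMI was found in 87.5% of Osr1-high and 8.02% of Osr1-0 cells, or in 63.0% and 2.44% after thinning to 3000 UMIs. The leukocyte gate, which should lack it, had 0.877% after thinning. Within the list of lysophospholipid signalling genes, Enpp2 was the 1 of 6 counted genes past 2-fold, and the list's median was 0.16. The lipid phosphate phosphatases Plpp1, Plpp2 and Plpp3, which break lysophosphatidic acid down, were at log2 ratios of 0.13, 0.06 and 0.35.

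Lgals1 (chromosome 15, 78926725 to 78930465, plus strand), encoding the sugar-binding protein galectin-1, was at 8943 CPM (8865 to 9022) against 398 CPM (388 to 408), a log2 ratio of 4.46. Its per-cell level in Osr1-high cells ran from 0 over a median of 88.2 to 275 UMIs per 10000, and 18 of 985 Osr1-0 cells (1.83%) lay above the median. Conversely 6 of 257 Osr1-high cells lay below the Osr1-0 median of 0.897. Csrp2, a LIM-domain protein that binds the actin cytoskeleton, followed a like pattern at 2314 against 195 CPM (3.50), with 3 Osr1-high cells below the Osr1-0 median. The full ranges overlap for both genes, with Osr1-0 cells reaching 217 for Lgals1 and 77.2 for Csrp2, where the highest Osr1-high cell had 62.0. The bulk of the cells lay apart: 95% of Osr1-0 cells were at or under 23.6 for Lgals1 and 10.9 for Csrp2, against Osr1-high medians of 88.2 and 24.9.

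The other leading genes included growth factors, matrix proteins and surface proteins. Fndc1, a protein with fibronectin type III domains, was at 665 against 24.99 CPM (4.27), and Fgf1, acidic fibroblast growth factor, at 449 against 13.2 CPM (4.31). Mfap5, a glycoprotein of elastic microfibrils, was at 539 against 26.8 CPM (3.90). Emilin2, another elastic fibre glycoprotein, was at 101 against 4.197 CPM (2.96). Igfbp3, which carries insulin-like growth factors, was at 286 against 24.9 CPM (3.09). Fibronectin, Fn1, was at 429 against 47.0 CPM (2.95). Col1a1, the main chain of collagen I, was at 748 against 92.5 CPM (2.89), and Col6a5, a chain of collagen VI, at 105 against 6.30 CPM (2.82). The 15 highest genes also held the surface antigen Ly6a (429 against 25.3 CPM, 3.64), the water channel Aqp5 (209 against 12.3 CPM, 3.30), the G protein subunit Gng13 (247 against 13.2 CPM, 3.47) and Pianp (83.5 against 3.31 CPM, 2.81).

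Lowest of all was Prph (chromosome 15, 99055174 to 99058978, plus strand), which encodes the intermediate filament peripherin. It was at 41.0 CPM (35.9 to 46.7) in Osr1-high and 584 CPM (572 to 596) in Osr1-0 cells, a log2 ratio of -3.54. A Prph UMI was found in 11.7% of Osr1-high and 76.1% of Osr1-0 cells, or in 3.89% and 61.3% after thinning, where the leukocyte gate had 1.75%. The water channel Aqp1 was at 151 against 1327 CPM (-3.05), and 98.4% of Osr1-high cells lay below the Osr1-0 median. Fmo2, a flavin-containing monooxygenase, was at 252.5 against 1920 CPM (-2.88). Myl7, a myosin light chain best known from the heart atrium, was at 66.2 against 604 CPM (-3.01). Plet1, an epithelial surface protein, was at 13.1 against 179 CPM (-3.03). The remaining 5 of the 10 lowest were Bst1 (-3.01), AU021092 (-2.95), the proton pump subunit Atp6v0a4 (-2.78), Fgl2 (-2.71) and the matrix protein Smoc2 (-2.59). Aquaporins thus differed in opposite directions, Aqp5 higher and Aqp1 lower.

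Promoter sequence was looked up for the leading genes in the RefSeq table for GRCm38.p6, which gives 250 bases before to 50 after each start. Entries were found for 7 of the 15 highest and 7 of the 10 lowest genes. The promoters of Fndc1, the highest gene with an entry, and of Prph and Plet1, among the 3 lowest, are printed 5′ to 3′ because each holds the TATA-box letters TATAAA, shown in capitals, on 1 of its strands. They lie at chr17:7827253-7827552 (minus strand), chr15:99054924-99055223 (plus strand) and chr9:50494275-50494574 (plus strand).
Fndc1: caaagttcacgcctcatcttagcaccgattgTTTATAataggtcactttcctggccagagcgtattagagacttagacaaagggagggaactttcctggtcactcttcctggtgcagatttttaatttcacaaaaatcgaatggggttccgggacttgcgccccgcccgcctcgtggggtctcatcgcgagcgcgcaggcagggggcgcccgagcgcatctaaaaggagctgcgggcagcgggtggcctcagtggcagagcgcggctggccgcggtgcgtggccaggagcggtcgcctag
Prph: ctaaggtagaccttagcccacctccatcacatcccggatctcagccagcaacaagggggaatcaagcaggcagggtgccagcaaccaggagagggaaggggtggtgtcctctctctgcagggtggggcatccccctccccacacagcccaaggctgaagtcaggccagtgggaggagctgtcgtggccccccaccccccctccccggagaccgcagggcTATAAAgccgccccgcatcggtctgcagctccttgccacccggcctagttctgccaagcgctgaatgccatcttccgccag
Plet1: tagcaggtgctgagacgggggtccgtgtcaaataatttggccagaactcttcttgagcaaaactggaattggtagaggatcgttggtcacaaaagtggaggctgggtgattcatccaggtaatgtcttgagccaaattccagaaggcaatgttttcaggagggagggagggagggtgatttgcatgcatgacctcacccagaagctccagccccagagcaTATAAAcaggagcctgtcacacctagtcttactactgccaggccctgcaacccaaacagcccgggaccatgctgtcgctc
In Prph and Plet1 the match reads TATAAA on the gene's own strand, and in Fndc1 it reads TTTATA, its reverse complement. Searched on both strands, TATAAA was in the promoter of 37 of the 193 higher genes with an entry (19.2%), 23 of 211 lower genes (10.9%), 555 of 6734 counted genes (8.24%) and 13.6% of all 32851 promoters in the table. The core motif of the odd-skipped family, ACAGTAGC, was in 1 of 193 higher (0.518%), 2 of 211 lower (0.948%) and 54 of 6734 counted genes (0.802%), against 0.898% of all promoters. The motifs share no stretch that would make 1 match count for both, and a match is a description of the letters, not of binding.

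The leading genes were carried together by the same cells. Of the 15 highest genes, an Osr1-high cell had a UMI of 13 in the median (4 to 15), and 238 of 257 cells (92.6%) had 8 or more. Osr1-0 cells had 3 in the median, and 33 of 985 (3.35%) had 8 or more. Of the 10 lowest genes, Osr1-high cells carried 1 in the median and Osr1-0 cells 8. These genes were chosen on the same cells, and deeper cells show more genes, so the counts describe how the pattern is spread and test nothing.

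**Figure D2:**
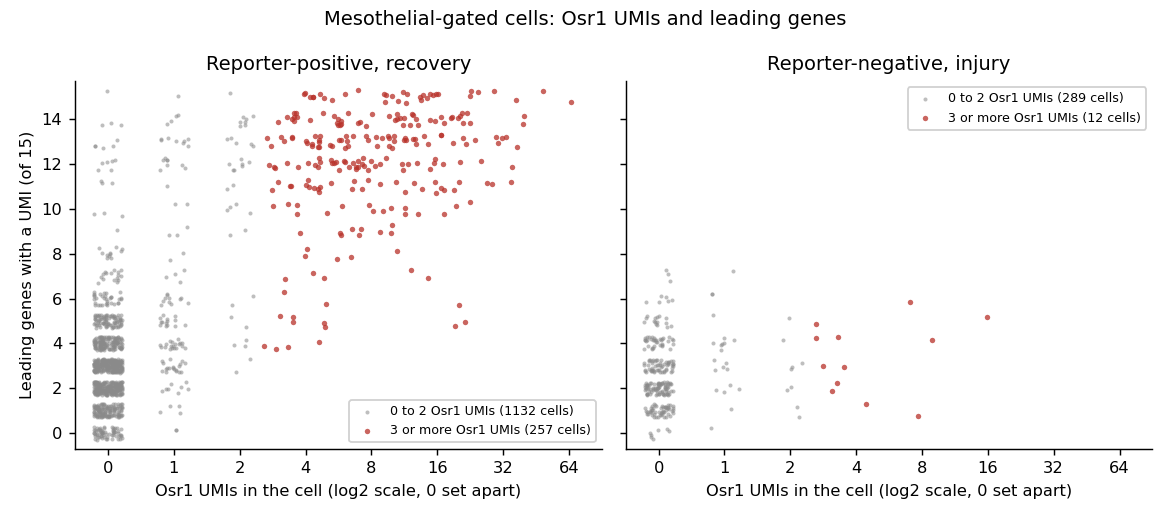
Each dot is a gated cell, placed by its Osr1 UMIs (horizontal, log2 scale with 0 set apart) and by how many of the 15 leading genes had a UMI (vertical, jittered). In recovery (left) 238 of the 257 cells with 3 or more Osr1 UMIs, in red, have 8 or more leading genes, and at injury (right) 0 of 12 do.

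Around the threshold the genes differed in where their levels changed. Lgals1 was at 398 CPM in cells with 0, 2676 CPM in the 110 cells with 1, 8536 CPM in the 37 cells with 2 and 8825 CPM in the 25 cells with 3. Above that it was flat, between 8552 and 9433 CPM, up to the 31 cells with 20 or more Osr1 UMIs. Of cells with 1 Osr1 UMI 26.4% carried 8 or more leading genes, and of cells with 2 Osr1 UMIs 75.7% did. Lgals1 was thus alike just outside and just inside the rule, while other genes were not. Between cells with 2 and with 3 Osr1 UMIs, Fn1 was at 291 and 1003 CPM, Ly6a at 419 and 170 CPM, Ccl2 at 378 and 109 CPM, and Cxcl13 at 10.7 and 429 CPM. Enpp2 was at 542 and 768 CPM and Mfap5 at 344 and 316 CPM. These are sums over 37 and 25 cells, so single cells can set them. In the 33 cells with 4 Osr1 UMIs, Fn1 was at 392 CPM and Cxcl13 at 12.8 CPM. The 25 cells held 239 Cxcl13 and 559 Fn1 UMIs. The 3 Osr1-high cells with most Cxcl13, which had 3 to 13 Osr1 UMIs, held 279 Cxcl13 and 416 Fn1 UMIs.

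The summed levels of some genes went on changing among the Osr1-high cells. Slpi, a secreted protease inhibitor, was at 1679 CPM in cells with 3 Osr1 UMIs, 1066 CPM with 4, 914 CPM with 5 to 9, 759 CPM with 10 to 19 and 277 CPM with 20 or more. Plet1 went from 35.9 to 1.04 CPM and Myl7 from 264 to 9.36 CPM between the same ends. Col1a1 was at 700 CPM with 3 and 927 CPM with 20 or more Osr1 UMIs, and Ly6a at 170 and 706 CPM. Upk3b showed no such order, lying between 1057 and 1572 CPM. The 31 cells with 20 or more Osr1 UMIs were deeper, with a median of 31106 UMIs. The other strata of Osr1-high cells had medians of 15012 to 18204, and the part of depth in these orders was not tested. For Slpi, 10 of the 257 cells held 62.8% of the UMIs and 1 cell held 876, where the strata held 266 to 1590. The part of single cells in its order was not tested either.

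**Figure D3:**
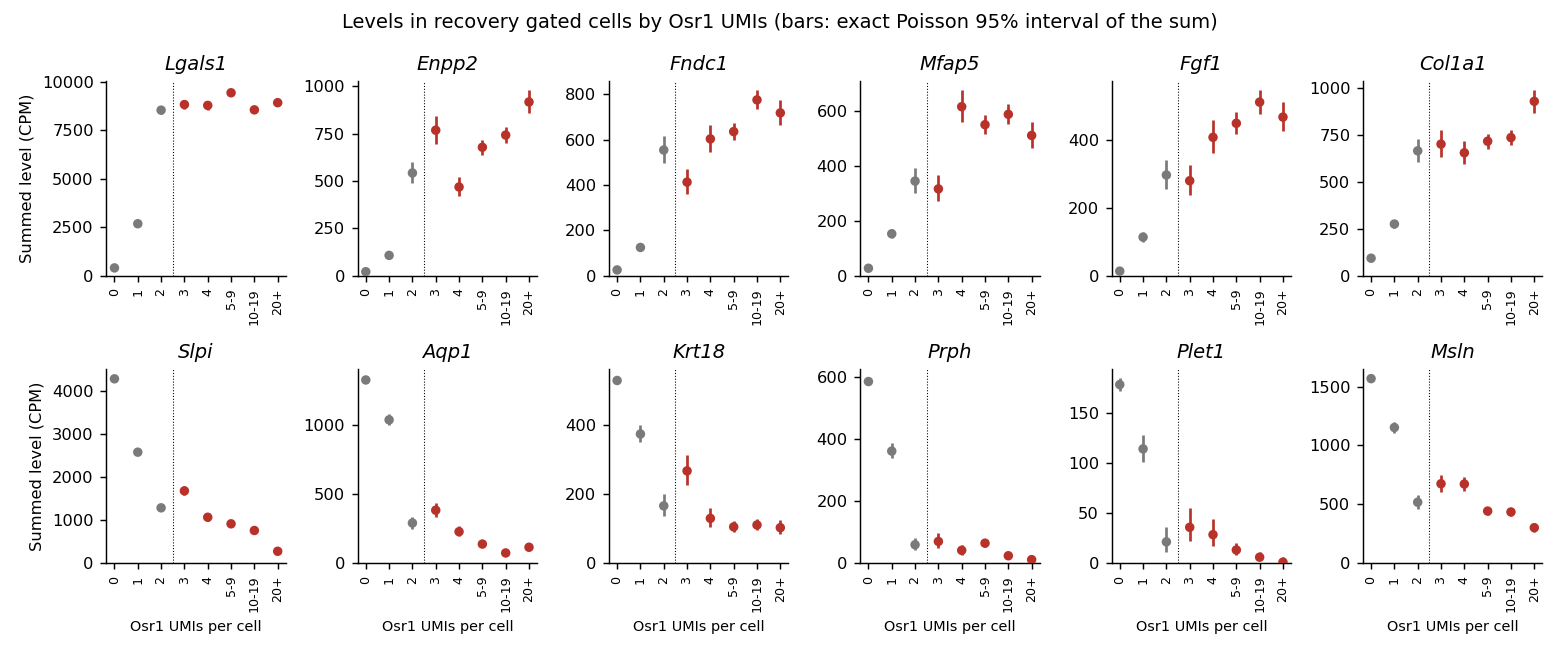
Summed level in CPM (vertical, with exact Poisson 95% interval) of 12 genes in gated recovery cells split by Osr1 UMIs per cell (horizontal). Grey dots are cells outside and red dots cells inside the rule, on either side of the dotted line. Lgals1 is nearly level from 2 UMIs onward, while the Slpi sum declines to 277 CPM in cells with 20 or more. Of the Slpi UMIs in Osr1-high cells, 62.8% were in 10 cells.

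Keratins of simple epithelia were mostly lower. Of the 6 counted keratins, which include Krt14 and Krt10 of stratified epithelia, 4 were at least 2-fold lower and 0 higher, with a median of -1.97. Of the simple keratins, Krt18 was at 126 against 529 CPM (-1.99) and Krt7 at 123 against 606.5 CPM (-2.21). Krt8 had a ratio of -1.95 (109 against 451 CPM), while Krt19 stayed nearer, at 956 against 1421 CPM (-0.57). Krt14 was at 9.59 against 88.8 CPM (-2.33) and Krt10 at 21.7 against 17.5 CPM (0.20). In single cells, 93.4% of Osr1-high cells lay below the Osr1-0 median of Krt18. Among 14 counted junction and polarity genes 3 were lower, namely the P-cadherin gene Cdh3 (-1.49), the desmosomal Pkp2 (-1.26) and the membrane linker Ezr (-1.12). A pair was higher, the claudin Cldn10 at 232 against 41.2 CPM (2.24) and the anti-adhesive sialoprotein Podxl at 85.4 against 5.79 CPM (2.60). Of the 18 mesothelial markers 5 were lower and 0 higher, with a median of -0.54, and the lowest was Slpi at 854 against 4280 CPM (-2.31). Others in that list differed little, such as Igfbp6 at 4400 against 4480 CPM and C3 at 8051 against 9395 CPM.

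Transcription factors of mesenchyme and mesothelium split. Of 23 counted, 4 were higher and 2 lower, with a median of -0.10. Zeb2, a zinc finger repressor of epithelial genes, was at 98.2 against 17.1 CPM (2.0). Prrx1, a homeobox factor of limb and fibroblast mesenchyme, was at 31.6 against 2.23 CPM (1.77). Tcf4 was at 139 against 49.2 CPM (1.33) and Twist1 at 53.1 against 20.4 CPM (1.06). Gata4, a factor of septum transversum mesenchyme, was at 8.88 against 42.0 CPM (-1.46), and Foxf1 at 24.9 against 60.9 CPM (-1.02). Klf4 (0.23), Klf2 (-0.03) and Nfib (0.00) were near level.

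Genes of collagens I and III were higher. Of 16 counted genes of collagens and their processing, 4 passed 2-fold upward and 0 downward, and the median was 0.41. Besides Col1a1, Col1a2 was at 685.5 against 134 CPM (2.27), Col3a1 at 2151 against 583 CPM (1.87) and Bmp1, which trims procollagen, at 108 against 39.2 CPM (1.26). The chaperone Serpinh1 (0.52), the enhancer Pcolce (-0.31) and the crosslinking enzyme Loxl1 (0.65) stayed within 2-fold. For comparison, Col1a1 was at 3712 CPM in the 102 cells gated on Dpt and Mfap4 and 2632 CPM in the 99 cells that met both gates. The portal and adventitial fibroblast list moved with these genes, with 7 of 14 counted members higher and 3 lower and a median of 0.92. Its summed level was 3657 CPM in Osr1-high cells (969 to 8350 per cell) and 2454 CPM in Osr1-0 cells (0 to 8170), and Dpt and Mfap4 were level as given above. Its part in the collagen levels was not tested.

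That fibroblast list did not move as a block. Clec3b, encoding tetranectin, was at 387 against 51.3 CPM (2.69), the scavenger receptor Scara5 at 31.1 against 0.954 CPM (1.91), Fbln1 at 936 against 260 CPM (1.81) and Cd34 at 696 against 255 CPM (1.42). Sema3c was at 182 against 568 CPM (-1.59), Gli1, a target of hedgehog signalling, at 2.13 against 23.3 CPM (-1.46) and Dpp4 at 124 against 278 CPM (-1.11). The surface antigens gave a like mixture, 3 of 12 higher and 2 lower with a median of -0.62. Ly6a, Cd34 and Cd248 (169 against 57.1 CPM, 1.41) were higher, and Alcam, an adhesion molecule of the mesothelium, was at 128 against 621 CPM (-2.19).

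The other matrix lists were mixed. Of 20 counted basement membrane and adhesive genes 3 were higher (Fn1, Nid2 at 1.49, Lamb1 at 1.02) and 2 lower, with a median of 0.28. The lower ones were laminin chains, Lama5 at 9.23 against 93.7 CPM (-2.43) and Lamc1 at 49.5 against 121 CPM (-1.14). Among 13 proteoglycan and hyaluronan genes 3 were higher and 5 lower, with a median of -0.47. The lower ones were the small leucine-rich proteins Ogn (202 against 740 CPM, -1.82), Omd (-1.81) and Podn (-1.41), Fmod (-1.39), and the lubricant Prg4 at 51.0 against 199 CPM (-1.78). Higher were Vcan at 30.5 against 2.42 CPM (1.71), the hyaluronan receptor Cd44 (1.4) and Lum (1.08). Fmod and Lum were named after their values were seen. Of 14 elastic fibre genes 5 were higher, Mfap5, Emilin2, Fbln1, Fbln2 (1.23) and Emilin1 (1.21), and 2 were lower, with a median of 0.62. Ltbp1, which stores latent TGF-beta in the matrix, was at 12.6 against 102 CPM (-2.31), and Ltbp4 at 435 against 984 CPM (-1.16).

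Proteases and their inhibitors were higher in 9 of 17 counted genes and lower in 1, with a median of 1.20. Serpinf1, encoding the anti-angiogenic factor PEDF, was at 102 against 9.41 CPM (2.53). The metalloproteinases Mmp23 (287 against 52.9 CPM, 2.24) and Mmp19 (29.8 against 2.04 CPM, 1.73) and the serine protease Htra3 (65.0 against 10.49 CPM, 1.87) were higher too. Tissue plasminogen activator, Plat, was at 207 against 50.8 CPM (1.83). In the coagulation list, 4 of 9 counted genes were higher and 1 lower, with a median of 0.50. Thbd, thrombomodulin, which turns thrombin to an anticoagulant role, was at 305 against 37.1 CPM (2.74), and Pros1, protein S, at 35.2 against 7.31 CPM (1.38). The starter of coagulation, tissue factor F3, was at 33.7 against 116 CPM (-1.53).

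**Figure D4:**
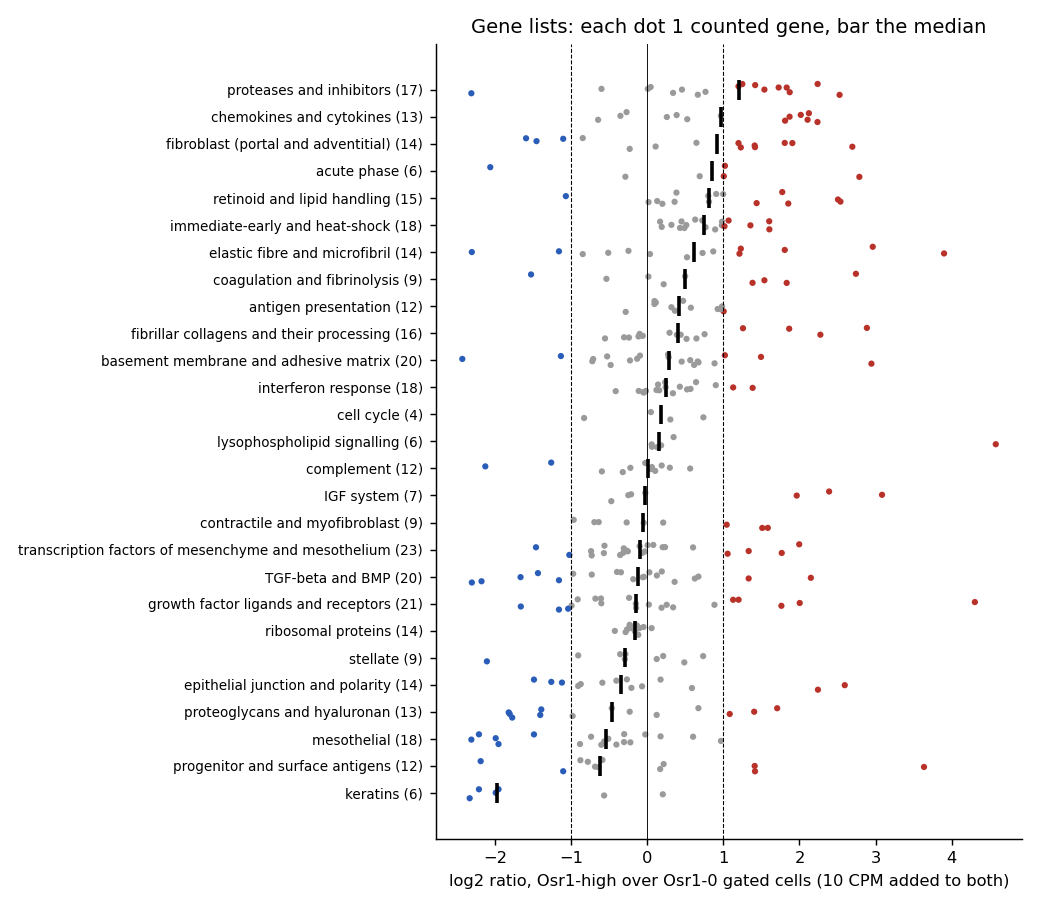
Log2 ratios of Osr1-high over Osr1-0 cells (horizontal) for the counted genes of 27 lists (vertical, number of counted genes in brackets), each dot 1 gene and each black bar the list's median. Dashed lines mark 2-fold, red dots are higher and blue dots lower genes. Keratins lie lowest with a median of -1.97 and proteases and inhibitors highest with 1.20.

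Growth factor genes differed by ligand. Of 21 counted ligands and receptors 5 were higher and 3 lower, with a median of -0.15. Besides Fgf1, the Wnt antagonist family member Dkk3 was at 108 against 19.5 CPM (2.0), the PDGF receptor Pdgfra at 71.2 against 13.9 CPM (1.76) and the ligand Wnt4 at 396 against 167 CPM (1.20). The fifth, Vegfa (1.13), was named after its value was seen. Lower were the Wnt inhibitor Sfrp1 at 4.8 against 36.8 CPM (-1.66), the ligand Pdgfa at 68.2 against 165 CPM (-1.16) and Kitl at 65.5 against 145 CPM (-1.04). In the insulin-like growth factor system 3 of 7 counted genes were higher and 0 lower, with a median of -0.03. Igf1 was at 120 against 14.8 CPM (2.39) and Igfbp4 at 1764 against 445 CPM (1.96), while Igfbp5 was at 7896 against 9150 CPM (-0.21).

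Of 20 counted TGF-beta and BMP genes 5 were lower and 2 higher, with a median of -0.12. The ligand Tgfb2 was at 46.7 against 247 CPM (-2.18), Bmp4 at 81.5 against 238 CPM (-1.44) and the BMP target Id1 at 312 against 1012 CPM (-1.67). Id3, of the same family, was at 1321 against 1296 CPM (0.03). Tgfbi, a matrix protein induced by TGF-beta, was at 84.3 against 27.5 CPM (1.33). Contractile genes gave 3 higher of 9 and 0 lower, with a median of -0.05. These were Cnn3 (184 against 54.6 CPM, 1.58), Des (43.0 against 8.59 CPM, 1.51) and Tpm2 (1.04), whereas Vim was at 2024 against 3284 CPM (-0.70).

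Chemokine and cytokine genes were higher in 6 of 13 counted genes and lower in 0, with a median of 0.97. The monocyte attractants Ccl7 (58.4 against 4.52 CPM, 2.24) and Ccl2 (97.5 against 19.4 CPM, 1.87) and the neutrophil attractants Cxcl1 (319 against 65.5 CPM, 2.12) and Cxcl2 (41.6 against 2.74 CPM, 2.02) were among them. Neither Ccl2 nor Ccl7 was highest in the Osr1-high cells: the 147 gated cells with 1 or 2 Osr1 UMIs were at 256 and 92.0 CPM, and Ccl2 was at 45.7 CPM in cells with 20 or more Osr1 UMIs. Ccl2 was also at 208 CPM in the endothelial gate, 343 CPM in the cells gated on Lrat, Reln and Colec11 and 108 CPM in the leukocyte gate. After thinning, 11.3% of Osr1-high, 4.15% of Osr1-0 and 13.2% of leukocyte-gated cells had a Ccl2 UMI, and without thinning 23.7%, 9.14% and 17.3%. Il33, an alarmin, was at 235 against 59.9 CPM (1.81). Cxcl13 at 66.8 against 7.82 CPM (2.11) rested on 3 cells, as given above. In cells of 8000 to 30000 UMIs Cxcl13 fell short of 2-fold at 0.46 and Cxcl2 at 0.51. The immediate-early and heat-shock list moved in the same direction, with 5 of 18 higher, 0 lower and a median of 0.74, led by Ier2 and Hspb1 (both 1.6). Its part in the chemokine levels was not tested. Macrophage marker RNA was not spread through the group: 2 Osr1-high cells held 710 of its 904 UMIs, and the other 255 cells were at 34.8 CPM. Of the Osr1-0 cells 4 held 385 of 1052 such UMIs, and the other 981 cells were at 42.5 CPM. The leukocyte gate was at 17240 CPM. Without cells of 20 or more such UMIs, Lyz2 went from 2.0 to -0.05.

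Acute phase genes were higher in 3 of 6 and lower in 1, with a median of 0.85. Saa3, a serum amyloid made outside hepatocytes, was at 1040 against 142 CPM (2.79), and Lbp, which binds bacterial lipopolysaccharide, at 38.7 against 194 CPM (-2.06). The other two higher genes lay at the threshold. Cp, ceruloplasmin, was at 127 against 57.7 CPM (1.02) and fell short of 2-fold under 8 of the 16 alternatives, and Hp, haptoglobin, was at 25.4 against 7.63 CPM (1.01) and fell short under 6, at -0.46 as a mean over cells. Complement genes gave 0 higher and 2 lower of 12, with a median of 0.01. C4b, a component of the classical pathway, was at 501 against 2226 CPM (-2.13). Among lipid and retinoid genes 5 of 15 were higher and 1 lower, with a median of 0.81. The fatty acid carriers Fabp4 (81.8 against 6.17 CPM, 2.51) and Fabp5 (809 against 217 CPM, 1.85), Rarres1 (57.4 against 1.59 CPM, 2.54) and the retinoic acid synthesising enzyme Aldh1a2 (196 against 50.2 CPM, 1.77) were higher, and Rarres2, chemerin, was at 2085 against 4389 CPM (-1.07). Ribosomal proteins and the cell cycle list gave 0 of 14 and 0 of 4 past 2-fold in either direction, with medians of -0.16 and 0.18. Over all 8534 counted genes 6.63% were past 2-fold, so a count of 0 in lists this short does not set them apart.

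Osr1-high cells were not uniform among themselves. The largest variance beyond counting noise, over genes of at least 50 CPM, was that of Saa3, of which 10 cells held 63.9% of the UMIs and 45.5% of cells had any. Slpi came next, with 62.8% in 10 cells and 876 UMIs in 1 of them. Lyz2 (94.9% in 10 cells) and Cxcl13 (82.2%) were carried by few cells. Lgals1 and Igfbp5 also varied beyond counting noise but were found in 99.6% of cells each. The 3 cells with most Cxcl13 had 1747 CPM of it and were also high in Enpp2 (2511 CPM), Fn1 (2605 CPM) and Saa3 (3788 CPM), but low in Mfap5, at 81.4 CPM against 552 CPM in the other 254 cells.

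Outside the gate, 15 further kept cells of the library had 3 or more Osr1 UMIs, 11 because of their level of the gate genes and 4 because of the endothelial limit. They held 2007 of the 4476 Cxcl13 UMIs in the library's kept cells. Of the 2007, 1035 and 921 were in 2 cells with 13 Osr1 UMIs each. Compared with the cells gated on Dpt and Mfap4, the Osr1-high mesothelial-gated cells were higher in Lgals1 (8943 against 1169 CPM), Enpp2 (721 against 73.7 CPM), Mfap5 (539 against 133 CPM) and Csrp2 (2314 against 111 CPM). They were lower in Col1a1, Col3a1 (2151 against 4892 CPM) and Smoc2 (19.5 against 754 CPM). Ly6a was level at 429 and 437 CPM, and Osr1 was at 54.0 CPM in those fibroblast-gated cells. The gates on Dpt and Mfap4 and on leukocyte genes were chosen after the data were seen.

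The same rule in the negative injury library found 12 cells, which came from another fraction and another stage, so fraction, stage and library cannot be told apart. Their Osr1 UMIs were 17, 10, 7, 7, 4, 4 and 3 in each of 6 cells, with a median depth of 21121 UMIs. The comparison group was the 258 gated injury cells with 0 Osr1 UMIs, at a median of 20183. The leading genes of recovery were mostly near 0. Fndc1, Mfap5, Gng13, Aqp5, Emilin2 and Col6a5 had 0 UMIs in the 12 cells, which allows up to 11.2 CPM by the limit of 3 counts and 13.8 CPM by the Poisson interval, and Enpp2 and Fgf1 had 2 UMIs each (7.47 CPM, 0.904 to 27.0). The 12 cells had a UMI of 3.5 of the 15 leading genes in the median (1 to 6), against 2 in the Osr1-0 injury cells, and 0 of 12 had 8 or more.

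Some differences had the same direction at injury. Fn1 was at 108 CPM (72.5 to 156) in the 12 cells against 17.4 CPM, with 75.9% of its UMIs in 1 cell. Col1a2 was at 243 CPM (187 to 309) against 84.0 CPM (1.43), with 46.2% of its UMIs in 1 cell. Csrp2 was at 269 CPM (210 to 338) against 116 CPM (1.15), with 19.4% in 1 cell. Lgals1 was at 216.5 CPM (164 to 280) against 89.97 CPM (1.18), with 58.6% in 1 cell, far from its 8943 CPM in recovery. Others differed in direction: Ly6a was at 48.5 CPM (25.8 to 83.0) against 331 CPM (316 to 348) at injury. Prph was at 381 against 413 CPM (-0.11) and Aqp1 at 358 against 416 CPM (-0.21), near level where recovery had them among the lowest. Myl7, another of the 10 lowest, was lower at injury too, at 403 CPM (331 to 487) against 892 CPM (-1.13). The rest of the 10 lay within 2-fold at injury, from -0.83 (Plet1) to 0.07 (Bst1).

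Over 2561 genes with a mean of at least 50 CPM in both libraries, 10 were at least 2-fold higher at injury (0.390%) and 11 lower (0.430%). In recovery 56 of these genes were higher (2.19%) and 143 lower (5.58%). Of the 56 genes 8 were also at least 2-fold higher at injury (14.3%), 37 had the same sign and 1 was 2-fold lower, and their median was 0.22 at injury against 1.6 in recovery. Of the 143 lower genes 4 were 2-fold lower at injury (2.80%) and 101 had the same sign, with medians of -0.16 and -1.49. The whole set of 2561 had medians of 0.02 and -0.01. The filter takes the mean of the injury groups, so a gene low in Osr1-0 injury cells can enter through the 12 cells alone. Of the 8 genes shared upward, Fn1 (108 against 17.4 CPM) and Col1a1 (82.1 against 33.7 CPM) did so. Nr4a3 (115.7 against 44.98 CPM) and Fxyd1 (74.65 against 27.15 CPM) entered in the same way. Such genes add to the 14.3%, which is therefore partly set by the filter. The difference between stages was not tested, since each has 1 library and the injury group 12 cells.

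**Figure D5:**
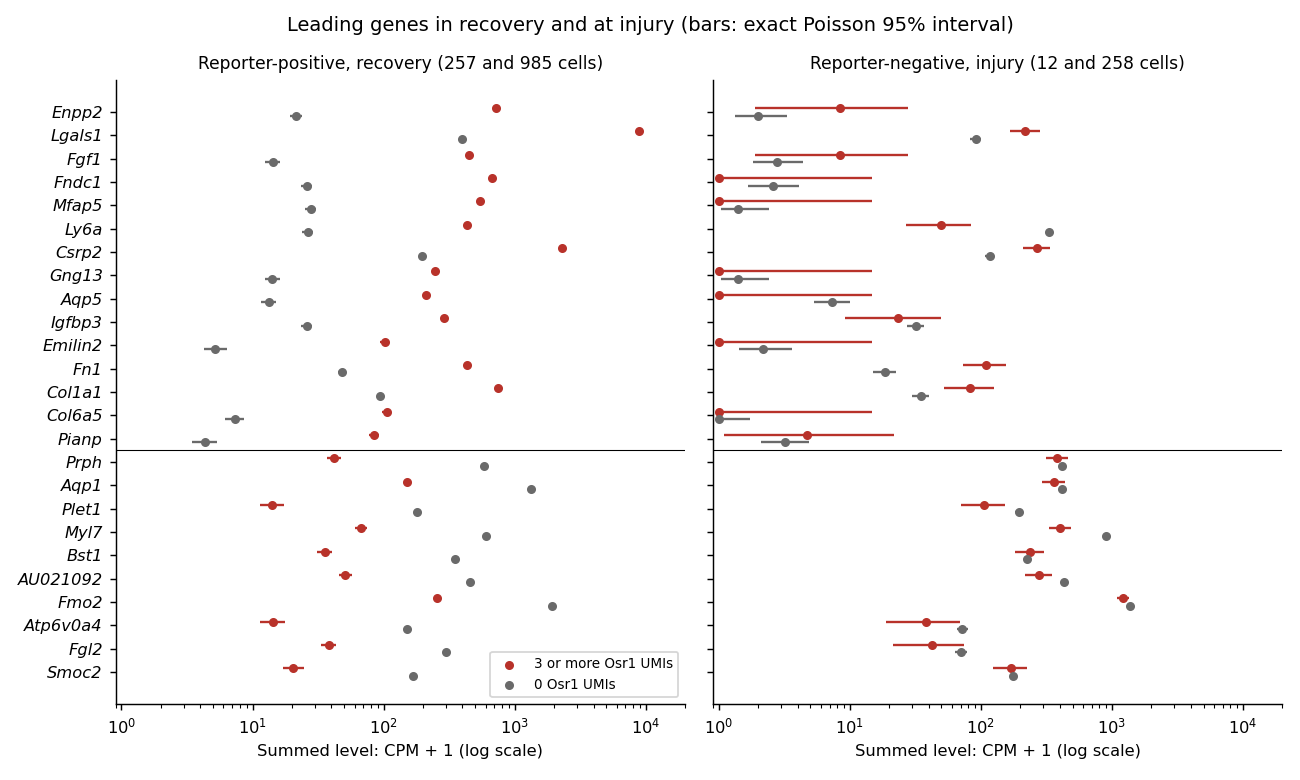
Summed levels (horizontal, CPM plus 1, log scale, with exact Poisson 95% intervals) of the 15 highest and, below the line, the 10 lowest genes of recovery, in cells with 3 or more Osr1 UMIs (red) and with 0 (grey). In recovery (left) the colours stand apart for each of the 25 genes by the choice of genes, while at injury (right) red lies at 0 for 6 genes and above grey, with intervals apart, for Fn1, Lgals1, Csrp2 and Col1a1.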

How the data were processed

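Single-cell 3' v2 libraries (10x Genomics) were made from livers treated with Pronase (14 mg a mouse) and Collagenase (3.7 U a mouse), followed by a Nycodenz gradient, per the labels' protocols. The authors deposited filtered matrices of UMI counts per gene and barcode, whose file headers give software version 3.1.0. The genome builds mm10 and GRCh38, fastp and featureCounts 1.6.2 are named in the submitters' processing notes. The aligner and the authors' cell calling were not given in the sources used here.

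Counts of the 3 matrices were summed over cells of a group and divided by the summed total (CPM). Ratios are log2 with 10 CPM added. Sums carry exact Poisson and shares Clopper-Pearson intervals, at 95% (scipy 1.17.1). Replicates were lacking, so no p-value was computed. The script was tested on simulated data. Coordinates are GENCODE M21 (mm10). A total of 10 marker and 24 program lists was used. The members, lists and leading genes were chosen with earlier results of these data known. Named were the gate and label genes, the 15 highest and 10 lowest ratios, from each list up to 6 genes past 2-fold and 3 others, and the 10 most variable genes; some genes that this rule takes are not reported here. For shares of cells, each cell was thinned to 3000 UMIs, leaving out 0 Osr1-high, 165 Osr1-0, 19 leukocyte-gated and 19 endothelial-gated cells. At injury 21 Osr1-0 cells were left out. Doublets were kept, and Scrublet (scanpy 1.11.5) served as an alternative. The alternatives also changed the added CPM, the filter, the scaling (TMM, edgeR 4.0.16), the weighting of cells, the gate and the depth range.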

Additional observations from a re-analysis of the deposited data

Results flagged for a closer look

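Ly6a, the surface antigen Sca-1, was higher in Osr1-high than in Osr1-0 cells of the positive recovery library, at a log2 ratio of 3.64, and lower at injury, at -2.54. The opposite directions in the 2 libraries flagged it. At injury the value rests on 13 UMIs in 12 cells, of which 76.9% were in 1 cell, while the 258 Osr1-0 cells were at 331 CPM. Clec3b was flagged for the same reason, at 2.69 in recovery and -1.14 at injury, where 4 UMIs in the 12 cells gave 14.9 CPM (4.07 to 38.2) against 45.0 CPM. Neither difference between the libraries was tested, and fraction, stage and library cannot be told apart.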

How the results depend on the processing

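Of 16 alternatives, 14 were planned and 2 were added after the data were seen (removing cells with macrophage RNA, and leaving out each gene's highest cell). With 50 CPM added instead of 10, 93 genes were higher and 104 lower. With a filter of 50 CPM, where 3118 genes were counted, 122 were higher and 160 lower. The other 14 alternatives gave 263 to 389 higher and 284 to 416 lower genes, and the number of Osr1-high cells lay between 194 and 257. With at least 2 Osr1 UMIs per 10000 in place of a fixed number, 240 cells were members, and 266 of the 275 higher and 288 of the 291 lower genes stayed past 2-fold. In cells of 8000 to 30000 UMIs, 258 of 274 higher and 276 of 284 lower genes did. Of 127 named genes past 2-fold, 78 stayed so under each of the 16 alternatives. The sign changed for 3: Hp at -0.46 as a mean over cells, Apoa2 at 0.04 in cells of 8000 to 30000 UMIs and Lyz2 at -0.05 without macrophage-marked cells. The cause was not tested for Hp and Apoa2. Scrublet called 96 kept cells (4.52%), among them 20 of the 257 Osr1-high and 39 of the 985 Osr1-0 cells. Its calls were thus more frequent in the Osr1-high cells. Without its calls 305 genes were higher and 323 lower. No paired analysis was possible because each group has 1 library. The 12 injury cells hold 267914 UMIs, where 1 UMI is 3.73 CPM and a count of 0 allows up to 11.2 CPM by the limit of 3 counts.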
